A study of Mus musculus with 10 samples.

Results

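The 77 genes named Mrpl or Mrps plus a number, of 48397 gene symbols measured, code for proteins of the mitochondrial ribosome, and they were chosen by symbol alone, leaving out 5 rows with the pseudogene suffix -ps. They were followed in the left atrium of mice with the wild-type genotype after 2 weeks of transverse aortic constriction (TAC, 5 libraries), which narrows the aorta so that the heart pumps against a higher pressure, and at the same time after sham surgery (Sham, 5 libraries). All mice were operated on at 2 months of age and, per the design text, were C57BL/6J males, with no transgene named. The design text names the left appendage where the sample labels name the left atrium, and RNA came from whole tissue. Whether every library is a different animal is not stated, and p-values cover the spread among the libraries alone, which may be technical.

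The mitochondrial ribosome, or mitoribosome, translates the few messenger RNAs made from mitochondrial DNA, all of which code for membrane subunits of the respiratory chain and of ATP synthase. Its ribosomal RNAs are transcribed inside the mitochondrion, whereas all of its proteins are encoded in the nucleus, made on cytosolic ribosomes and imported. Some of these proteins descend from bacterial ribosomal proteins and others were added in the mitochondrial lineage. Heart muscle is dense in mitochondria, and in humans inherited variants of several of these genes, among them MRPL3, MRPL44 and MRPS22, cause cardiomyopathy.

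Of the 77 genes, 50 code for proteins of the large subunit and 26 for proteins of the small subunit. Mrps18a and Mrps30 are counted with the large subunit, where the structures place their proteins in spite of the names. Mrps36 is counted apart, because its protein belongs to the 2-oxoglutarate dehydrogenase complex. The genes lie on 17 chromosomes. Mrpl53 had no count in any library and was not tested, and 87.97% of its annotated exonic bases are shared with another gene, so its level is unknown here. The other 76 genes passed the filter on low counts. Values below are CPM values, each count relative to its library's effective size after TMM scaling, which sets libraries against each other on the bulk of genes rather than on their totals. Levels are listed for TAC replicates 1 to 5 and then for Sham replicates 1 to 5.

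Most mitoribosomal protein genes were lower after TAC, by modest amounts. At an adjusted p under 0.05 (edgeR quasi-likelihood test, Benjamini-Hochberg over 15175 genes), 51 of the 76 tested genes were lower, against 27.9% of all tested genes. A single gene, Mrpl33, was higher, against 28.9% of all tested genes, and 24 were not called. In either direction 56.8% of all tested genes were called. The median log2 fold change (TAC over Sham) was -0.41 over the 76 genes and 0.01 over all tested genes. In 20 genes every TAC library was below every Sham library, against 20.2% of all tested genes. Scaled by library size alone, 13 genes were lower and 12 higher, with a median of -0.06, while the median of all tested genes moved by over 0.1 to 0.37 and the shares called lower and higher became 12.7% and 51.0%. A lower call here is thus a statement relative to the bulk of other genes.

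**Figure D1:**
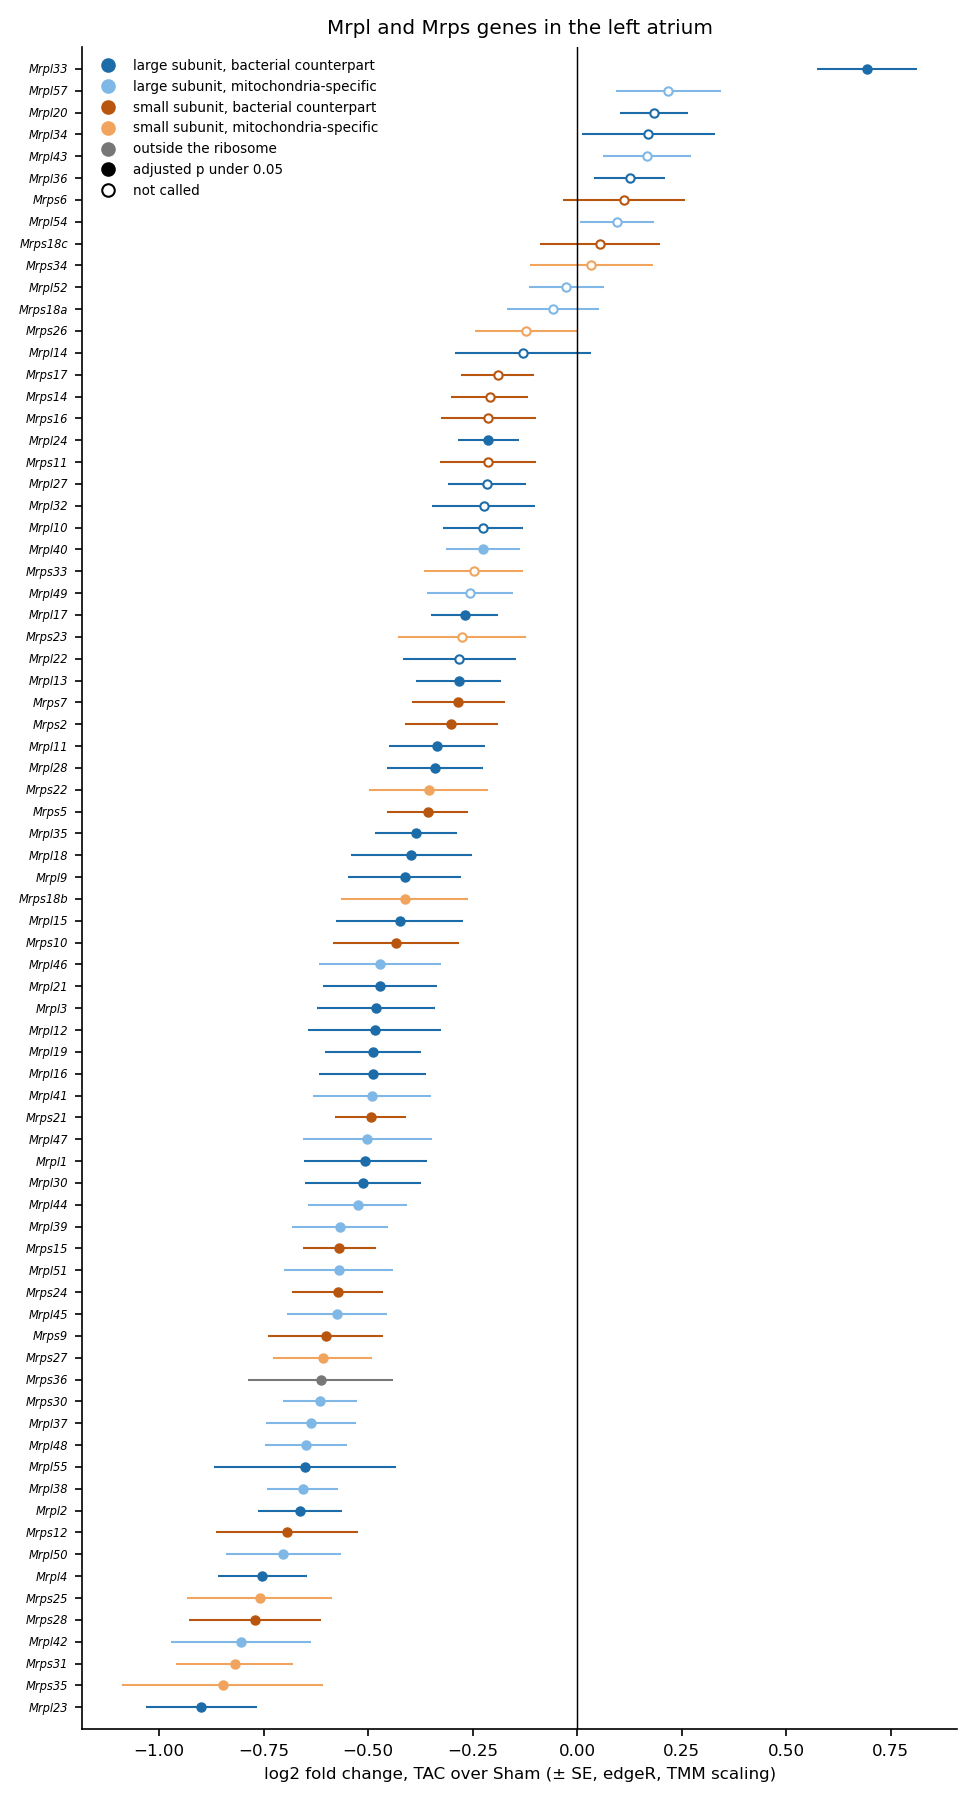
Log2 fold change (TAC over Sham, x axis, TMM scaling) of the 76 tested Mrpl and Mrps genes, ordered by value, with 1 SE from edgeR either side and filled points for an adjusted p under 0.05. 51 filled points lie left of 0 and 1, Mrpl33 at 0.69, lies right of it.

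Summed over the 77 genes, the level was 3299, 2208, 2374, 2160 and 2449 CPM in the TAC libraries. It was 3134, 3175, 3567, 3269 and 3494 CPM in the Sham libraries. TAC replicates 2 to 5 lay below every Sham library, and TAC replicate 1 lay among the Sham values. The ratio of the means was 0.751 on the TMM scale and 0.960 by library size. As a share of all counts the genes made up 0.281% ± 0.0393 in TAC and 0.293% ± 0.00996 in Sham (SD, n = 5 each). The TMM factors themselves averaged 1.13 ± 0.0524 in TAC and 0.884 ± 0.0490 in Sham.

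TAC replicate 1, singled out after its values were seen, held the highest TAC value in 72 of the 76 genes (94.7%), against 28% of all tested genes. It lay within the Sham range for 37 of the 76 genes (48.7%), against 35.8% of all tested genes. That share was 47.4% among cytosolic ribosomal protein genes and 34.2% among nuclear respiratory chain genes. Being the highest TAC library was not particular to this set, as it held in 75 of 76 nuclear respiratory chain genes (98.7%). Among cytosolic ribosomal protein genes TAC replicate 1 was the highest TAC library in 6 of 78. TAC replicate 1 was below the lowest Sham value in 21 of the 76 genes, and TAC replicates 2, 3, 4 and 5 were in 64, 60, 67 and 61. Over all tested genes these shares were alike in the 5 libraries, from 31.1% in TAC replicate 1 to 35.0% in TAC replicate 5. Without TAC replicate 1, 61 of the 76 genes were lower, against 27.5% of all tested genes, and the median was -0.50. In 58 genes all 4 other TAC libraries were below every Sham library, against 24.6% of all tested genes, and in 2 genes, Mrpl33 and Mrpl20, all 4 were above, against 24.7%.

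**Figure D2:**
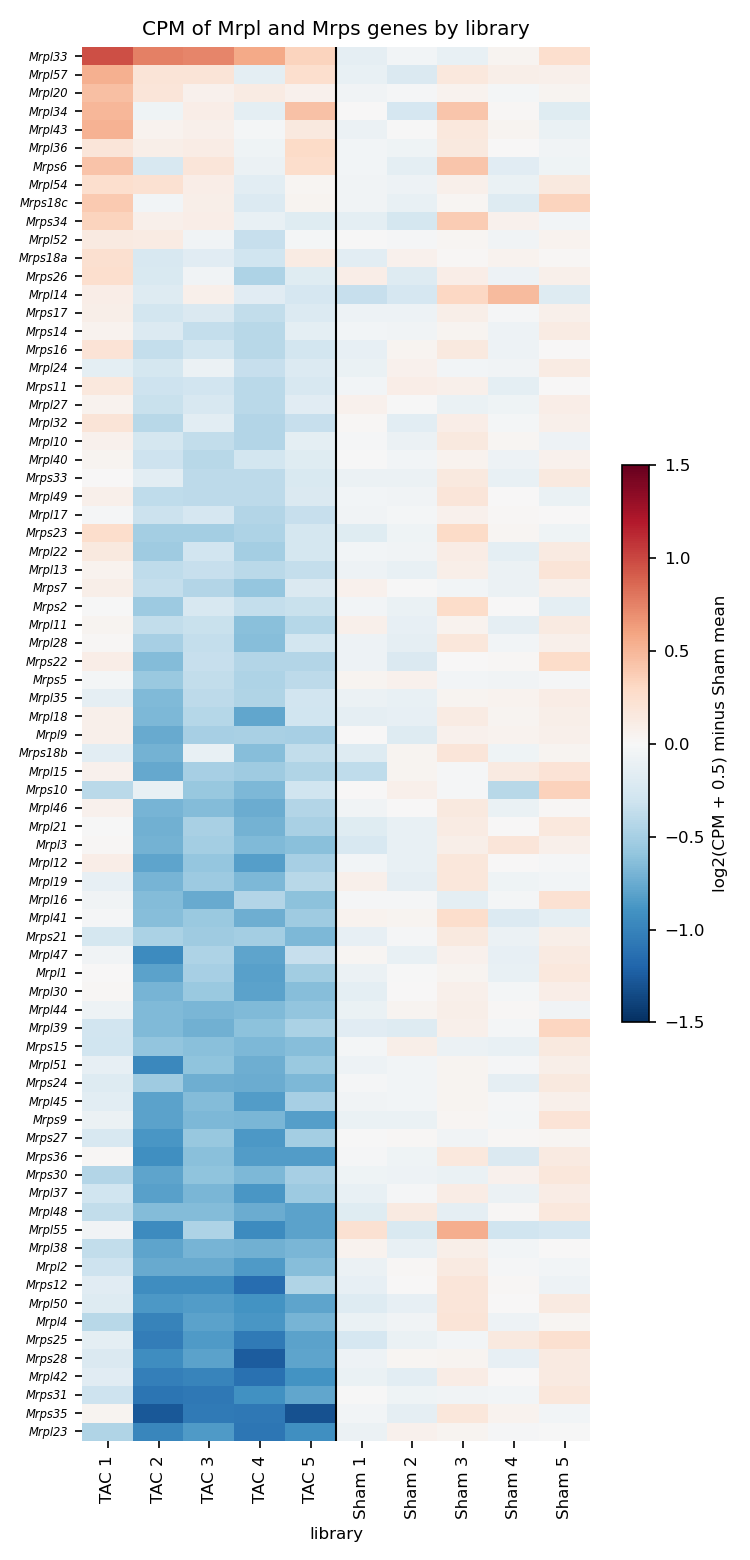
Level of each tested Mrpl and Mrps gene in each library, as log2(CPM + 0.5) minus the Sham mean of that gene (colour), with TAC libraries left of the line, Sham libraries right of it, and genes ordered by fold change. TAC replicate 1 is paler than TAC replicates 2 to 5 down most of the lower rows, and the top row, Mrpl33, is above the Sham mean in all 5 TAC libraries.

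The promoters of 3 genes are shown because they stand for the gene that rose, the gene with the lowest log2 fold change over all libraries and a gene that shares its promoter with a neighbour. Each runs 5′ to 3′ on the gene's strand, from 250 bases before to 50 bases after the RefSeq start (GRCm38.p6), with matches to the searched motifs in capitals.

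Mrpl33, chr5:31613701-31614000, plus strand, with an NRF1 and an ETS match a base apart: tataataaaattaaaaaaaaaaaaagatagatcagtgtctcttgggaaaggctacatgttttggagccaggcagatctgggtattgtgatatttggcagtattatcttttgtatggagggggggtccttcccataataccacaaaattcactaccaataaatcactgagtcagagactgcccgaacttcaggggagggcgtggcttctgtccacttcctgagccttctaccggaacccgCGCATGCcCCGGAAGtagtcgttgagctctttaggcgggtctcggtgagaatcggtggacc
Mrpl23, chr7:142532782-142533081, plus strand, with 2 GC boxes: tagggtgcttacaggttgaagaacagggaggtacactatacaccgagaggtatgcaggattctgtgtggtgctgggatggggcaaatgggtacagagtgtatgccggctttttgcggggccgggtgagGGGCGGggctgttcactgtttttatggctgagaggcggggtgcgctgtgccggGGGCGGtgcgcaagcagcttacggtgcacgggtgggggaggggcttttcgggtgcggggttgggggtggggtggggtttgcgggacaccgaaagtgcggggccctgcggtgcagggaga
Mrps12, chr7:28741772-28742071, minus strand, with a YY1, a GC box and an ETS match: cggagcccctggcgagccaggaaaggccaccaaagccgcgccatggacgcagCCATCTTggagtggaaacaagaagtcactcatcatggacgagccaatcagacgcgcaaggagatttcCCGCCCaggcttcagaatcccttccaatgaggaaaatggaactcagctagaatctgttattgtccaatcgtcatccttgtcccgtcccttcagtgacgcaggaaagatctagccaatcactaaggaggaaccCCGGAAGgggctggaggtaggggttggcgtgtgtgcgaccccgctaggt

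Mrpl33, the counterpart of bacterial L33 on the large subunit (chromosome 5, 31596935 to 31664384, GRCm38), was the gene that rose. Its level was 35.7, 30.8, 30.3, 26.9 and 22.9 CPM in the TAC libraries, against 16.4, 17.5, 16.6, 18.5 and 21.5 CPM in the Sham libraries. The groups did not overlap, and TAC replicate 5 and Sham replicate 5 came nearest to each other. The log2 fold change was 0.69 (SE 0.12, edgeR adjusted p = 0.00047) and 0.63 without TAC replicate 1. Over 22 alternative settings the adjusted p ran from 9.71e-07 to 0.00656. The promoter shown for Mrpl33 lies inside the annotated gene, whose 7326 exonic bases join all annotated isoforms. Which of its transcripts gave the counts cannot be told here.

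Mrpl20, the counterpart of bacterial L20, was the other gene whose groups did not overlap in that direction. It had 45.2, 37.3, 34.4, 35.9 and 34.5 CPM in TAC and 31.8, 32.7, 34.1, 32.2 and 34.0 CPM in Sham. The gap between the groups was small, and the log2 fold change of 0.18 was not called (edgeR adjusted p = 0.073). Mrpl57, Mrpl34, Mrpl43 and Mrpl36, also of the large subunit, followed with log2 fold changes of 0.22, 0.17, 0.17 and 0.13, which were not called. Mrpl20 was called without TAC replicate 5 (edgeR adjusted p = 0.0441) and Mrpl57 without TAC replicate 4 (edgeR adjusted p = 0.031).

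On the large subunit 34 of 49 tested genes were lower and 1 was higher, with a median log2 fold change of -0.42. Of the 29 genes classed as having a bacterial counterpart 20 were lower (median -0.38). That class here takes in Mrpl55, lower at -0.65, although its protein is specific to mitochondria. Of the 20 mitochondria-specific genes 14 were lower (median -0.51), a class that here takes in Mrps18a, although it descends from bacterial S18. The difference between these classes was not tested.

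Mrpl23, the counterpart of bacterial L23 at the exit of the peptide tunnel (chromosome 7, 142532686 to 142540747), had the lowest log2 fold change of the 76 genes with all libraries, and Mrps35 had the lowest without TAC replicate 1. Its level was 7.29, 4.91, 5.42, 4.52 and 5.15 CPM in TAC, against 9.56, 10.7, 10.52, 10.02 and 10.2 CPM in Sham. Every TAC library lay below every Sham library, and TAC replicate 1 was the highest of the 5. The log2 fold change was -0.90 (SE 0.13, edgeR adjusted p = 0.00015). A pseudogene copy, Mrpl23-ps1, is annotated and may take some of its reads. The promoter shown for Mrpl23 also lies inside the annotated gene.

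Mrpl42, a mitochondria-specific protein and the gene with the highest CPM among those named here, had 193, 107, 110, 99.6 and 117 CPM in TAC. In Sham it had 204, 196, 235, 219 and 240 CPM. TAC replicate 1 stood just under the lowest Sham library and the other 4 TAC libraries far below. The log2 fold change was -0.80 (SE 0.17, edgeR adjusted p = 0.0016) and -0.99 without TAC replicate 1.

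Mrpl3 and Mrpl44, whose human counterparts were named above for cardiomyopathy, were both lower. Mrpl3, the counterpart of bacterial L3 near the peptidyl transferase centre, had 71.6, 43.0, 49.4, 44.5 and 45.5 CPM in TAC and 59.5, 65.2, 74.9, 80.2 and 74.3 CPM in Sham. Mrpl44, a mitochondria-specific protein, had 38.6, 25.4, 25.0, 25.4 and 26.8 CPM in TAC and 38.0, 41.7, 43.3, 41.2 and 39.0 CPM in Sham. In both genes TAC replicate 1 lay within the Sham range and the other 4 TAC libraries lay below it. The log2 fold changes were -0.48 for Mrpl3 (SE 0.14, edgeR adjusted p = 0.012) and -0.53 for Mrpl44 (SE 0.12, edgeR adjusted p = 0.0026).

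The stalk of the large subunit recruits translation factors, with Mrpl12 as its mobile arm, Mrpl10 as the stem and Mrpl11 at the base. Mrpl12 had 77.1, 41.3, 47.8, 40.3 and 50.6 CPM in TAC and 69.8, 66.5, 80.7, 72.1 and 70.7 CPM in Sham. Its log2 fold change was -0.48 (SE 0.16, edgeR adjusted p = 0.022). The call was lost without TAC replicate 2 or TAC replicate 4, at adjusted p of 0.0569 and 0.0565. Mrpl11 was lower by a smaller amount, with a log2 fold change of -0.33 (SE 0.12, edgeR adjusted p = 0.026), and lost the call without Sham replicate 1 or 5 or any of TAC replicates 2 to 5, at adjusted p of 0.051 to 0.0691. Mrpl10 was not called at -0.22, but was without TAC replicate 1, at -0.29 (edgeR adjusted p = 0.0091).

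Mrpl45, which ties the human mitoribosome to the inner membrane at the tunnel exit, averaged lower in TAC, with a log2 fold change of -0.57 (SE 0.12, edgeR adjusted p = 0.0016). It had 45.9, 29.2, 32.6, 28.3 and 36.2 CPM in TAC, all below the 49.4, 49.8, 52.7, 50.6 and 54.0 CPM in Sham. Mrps30, placed on the large subunit by the structures, did not overlap between groups either. It had 19.0, 14.8, 16.8, 16.1 and 18.2 CPM in TAC, against 24.8, 24.6, 24.2, 27.1 and 29.3 CPM in Sham, and a log2 fold change of -0.62 (SE 0.09, edgeR adjusted p = 0.00013).

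On the small subunit 16 of 26 tested genes were lower and none was higher by edgeR, with a median log2 fold change of -0.36. Of the 16 with a bacterial counterpart 10 were lower (median -0.33), and of the 10 mitochondria-specific genes 6 were (median -0.38). The latter class takes in Mrps18b, which also descends from bacterial S18. Counts summed over the large subunit were 2.31 ± 0.0217 times those over the small subunit in TAC (SD, n = 5). In Sham this ratio was 2.35 ± 0.0493 (SD, n = 5). The difference was less than the SD in Sham but more than the SD in TAC, and it was not tested.

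Mrps35, a mitochondria-specific protein, had the widest gap between TAC replicate 1 and the rest, relative to its range, among the genes named here. Its level was 62.6 CPM in TAC replicate 1 and 24.9, 29.01, 28.7 and 24.4 CPM in TAC replicates 2 to 5. In Sham it was 59.1, 55.5, 68.8, 63.0 and 59.1 CPM. The log2 fold change was -0.85 (SE 0.24, edgeR adjusted p = 0.011) with all libraries and -1.17 (SE 0.08) without TAC replicate 1.

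Mrps31, also mitochondria-specific, had 33.4, 19.3, 19.5, 21.9 and 24.1 CPM in TAC, all below the 41.6, 39.8, 40.2, 40.5 and 46.9 CPM in Sham. Its log2 fold change was -0.82 (SE 0.14, edgeR adjusted p = 0.00041). Mrps28 and Mrps25 fell by 0.77 and 0.76 on the log2 scale. Mrps25 shares 69.8% of its annotated exonic bases with Nr2c2 on the opposite strand, and the strand setting is not given in the sources used here. Reads in the shared bases therefore cannot be told apart, and some may have been set aside as ambiguous.

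Mrps12, the counterpart of bacterial S12 at the decoding centre, had 32.5, 18.9, 19.1, 16.4 and 26.7 CPM in TAC and 33.7, 36.7, 41.7, 37.0 and 34.8 CPM in Sham. The groups did not overlap, although TAC replicate 1 came close to the lowest Sham library, and the log2 fold change was -0.69 (SE 0.17, edgeR adjusted p = 0.0043). Mrps22, the cardiomyopathy gene of the small subunit, was at the threshold. It had 21.5, 12.6, 15.7, 14.7 and 14.6 CPM in TAC and 19.1, 17.2, 20.1, 20.3 and 24.4 CPM in Sham, with a log2 fold change of -0.36 (SE 0.14, edgeR adjusted p = 0.0499). Leaving out any 1 library other than TAC replicate 1 or Sham replicate 2 lost the call, at adjusted p of 0.0599 to 0.128, and without TAC replicate 1 it was 0.0032. The call was also lost with upper-quartile factors (edgeR adjusted p = 0.0833), with no filter on low counts (0.0691) and without robust estimation (0.0509).

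Mrps16, a counterpart of bacterial S16, was not called (log2 fold change -0.21, edgeR adjusted p = 0.13) but was without TAC replicate 1 (-0.32, edgeR adjusted p = 0.0028). Mrps36, outside the ribosome, had 31.6, 16.2, 19.9, 17.3 and 17.2 CPM in TAC and 30.7, 29.8, 34.8, 26.8 and 34.3 CPM in Sham. TAC replicate 1 lay inside the Sham range and the other TAC libraries below it, and its log2 fold change was -0.61 (SE 0.17, edgeR adjusted p = 0.010).

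The most abundant genes per kilobase of annotated exon, averaged over the 10 libraries, were Mrps23 at 59.1, Mrps21 at 56.4 and Mrps6 at 55.8 CPM per kb. They did not behave alike. Mrps21, a counterpart of bacterial S21, had 40.5, 34.8, 33.4, 34.0 and 30.4 CPM in TAC, all below the 44.5, 48.1, 53.7, 45.6 and 51.8 CPM in Sham, and its log2 fold change was -0.49 (SE 0.09, edgeR adjusted p = 0.00047). Mrps23 was not called at -0.28, but was at -0.43 without TAC replicate 1 (edgeR adjusted p = 0.0035). Mrps6, whose annotated exons overlap those of Slc5a3, was not called at 0.11.

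The scarcest per kilobase were Mrps10 at 1.58 and Mrpl23 at 1.60 CPM per kb, and lengths here join the exons of all annotated isoforms. Mrps10 was lower with a log2 fold change of -0.43 (SE 0.15, edgeR adjusted p = 0.028), and lost the call without TAC replicate 1, 3 or 4 or Sham replicate 2 or 5, at adjusted p of 0.0536 to 0.0817. Across the 76 genes, the log2 fold change had a Spearman rho of -0.189 with exonic length and -0.0578 with the level per kilobase. Over 14674 tested genes with a length the same measures were -0.00829 and -0.188. Genes are not independent replicates, and these values describe the set without a test.

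Mammals keep 3 genes descended from bacterial S18, and their proteins occupy different places, Mrps18a on the large subunit and Mrps18b and Mrps18c on the small one. Mrps18b was the gene called among them, lower in TAC, with 6.36, 4.19, 6.57, 4.40 and 5.44 CPM in TAC and 6.21, 7.35, 8.15, 6.80 and 7.35 CPM in Sham. Its log2 fold change was -0.41 (SE 0.15, edgeR adjusted p = 0.035), and the call was lost without TAC replicate 2, 4 or 5 or Sham replicate 2, 3 or 5, at adjusted p of 0.0587 to 0.091. It was also lost with upper-quartile factors (edgeR adjusted p = 0.0625), with no filter on low counts (0.0696) and without the 2 shallowest Sham libraries (0.0542). Mrps18a (-0.06) and Mrps18c (0.06) were not called.

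A ratio of counts within a library does not depend on scaling, and each of the 3 pairs was compared with an exact two-sided permutation test over all regroupings of the 10 libraries, adjusted over the 3. The log2 ratio of Mrps18b to Mrps18c was -0.66 ± 0.189 in TAC and -0.18 ± 0.214 in Sham (SD, n = 5 each), and the difference of -0.48 had an exact p of 0.0159, adjusted 0.0476. The ranges overlapped between TAC replicate 3 at -0.39 and Sham replicate 5 at -0.49. The adjusted exact p was 0.0952 when any 1 library other than TAC replicate 3 or Sham replicate 5 was left out. For Mrps18a to Mrps18b the log2 ratio was 2.44 ± 0.239 in TAC and 2.08 ± 0.110 in Sham, with an exact p of 0.0397, adjusted 0.0595. Without TAC replicate 3 its adjusted exact p was 0.0238. For Mrps18a to Mrps18c the difference was -0.12, with an adjusted exact p of 0.31. Annotated exons of Mrps18b and Mrps18c share 30.54% and 23.23% of their bases with other genes, so part of these counts may be a neighbour's. Reads in shared bases may also have been set aside as ambiguous, a tally that averaged 5.79% of reads in TAC and 4.31% in Sham.

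**Figure D3:**
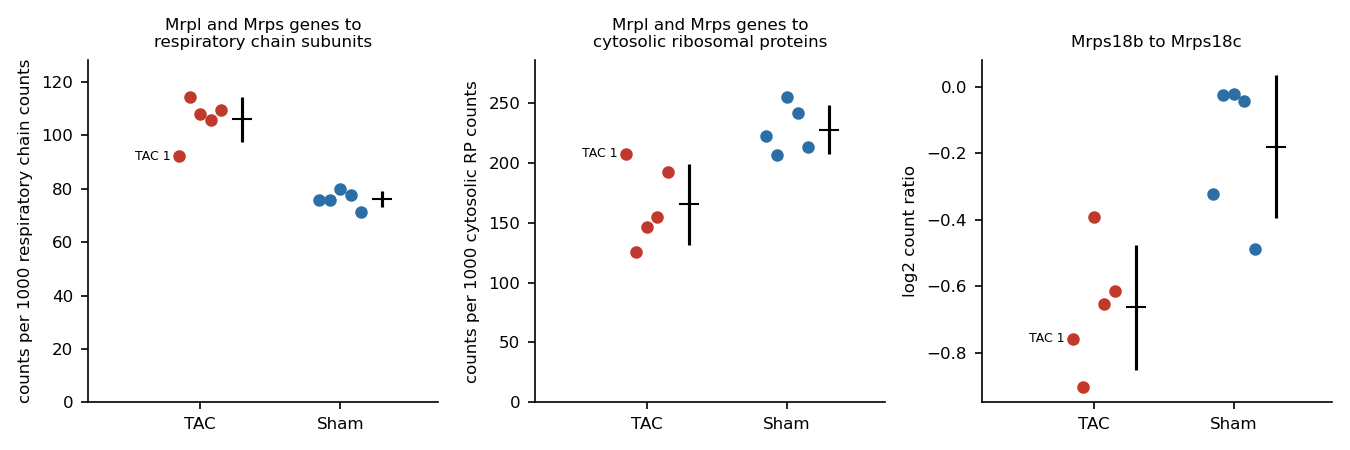
Count ratios within each library, TAC left of Sham, with the mean and 1 SD (bars, n = 5). Left, Mrpl and Mrps counts per 1000 counts of respiratory chain subunits, where the groups do not overlap; middle, per 1000 counts of cytosolic ribosomal proteins, where TAC replicate 1 overlaps Sham; right, the log2 ratio of Mrps18b to Mrps18c on an axis that does not start at 0.

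Mitoribosomal proteins that carry other names moved in the same direction. Of 6 such genes 5 were lower and none higher by edgeR, against 27.9% and 28.9% of all tested genes. Their median log2 fold change was -0.46. Dap3, a GTP-binding protein of the small subunit, had 63.3, 46.1, 47.4, 42.5 and 50.7 CPM in TAC, all below the lowest of its Sham values of 89.1, 85.2, 100.3, 87.7 and 104 CPM. Ptcd3, an RNA-binding protein of the small subunit, also had every TAC library below every Sham library. Their log2 fold changes were -0.90 (SE 0.11) and -0.86 (SE 0.09).

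Of 26 factors that assemble the mitoribosome or modify its RNA, 8 were lower and 1 higher, with a median of -0.27. The count of lower genes was near the share of all tested genes called lower, 27.9%, whereas 28.9% of all tested genes were higher. Without TAC replicate 1, 14 were lower, against 27.5% of all tested genes, and 1 higher, with a median of -0.36. Mtg1, a GTPase of large subunit assembly, was the lower gene with the smallest adjusted p, at -1.05 (SE 0.10). Mpv17l2, an inner membrane protein needed for assembly, was the higher gene, at 0.44 (SE 0.10, edgeR adjusted p = 0.0024).

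Of 14 tested translation factors 8 were lower and none higher by edgeR, against 27.9% and 28.9% of all tested genes. Their median was -0.38. Tufm, the elongation factor that delivers charged tRNA, had 84.9, 49.5, 55.4, 50.9 and 56.3 CPM in TAC and 105, 95.8, 103, 108 and 106 CPM in Sham, without overlap, at -0.80 (SE 0.13). Gfm2, which helps to take the ribosome apart after termination, was at -0.82 (SE 0.12). Of 20 mitochondrial aminoacyl-tRNA synthetase genes, whose enzymes charge the tRNAs, 16 were lower and none higher by edgeR, with a median of -0.47, and Tars2 was at -0.66.

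Of 17 genes of mitochondrial transcription and DNA maintenance 10 were lower and none higher by edgeR, against 27.9% and 28.9% of all tested genes. Their median was -0.34. Tfb2m, which opens mitochondrial promoters, and Lrpprc, which stabilises mitochondrial messenger RNAs, were both at -0.83. Tfam, which packages mitochondrial DNA, was lower by less, at -0.33 (edgeR adjusted p = 0.020), and the RNA polymerase gene Polrmt was not called at -0.09. Of the ribosomal RNAs, mt-Rnr2 of the large subunit was lower at -1.21, and mt-Rnr1 of the small subunit was not called at -0.55 (edgeR adjusted p = 0.058), but was without TAC replicate 1, at -0.66 (edgeR adjusted p = 0.032). Ribosomal RNA counts depend on how RNA was selected for the library, which the sources describe in conflicting ways.

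Among 11 regulators of mitochondrial biogenesis 5 were lower and none higher by edgeR, against 27.9% and 28.9% of all tested genes. Ppargc1a, the coactivator PGC-1α, had 80.6, 36.6, 52.4, 48.7 and 59.0 CPM in TAC and 134, 161, 137, 149 and 214 CPM in Sham, without overlap, at -1.52 (SE 0.20). Esrra, an orphan receptor that works with it, was at -0.85, and Gabpa, the ETS factor that binds promoters of many mitochondrial genes, at -0.49. Nrf1 at 0.04 and Myc at 0.01 were not called.

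The median of the mitoribosomal set lay between those of the respiratory chain and of the cytosolic ribosome. Of 76 nuclear genes for respiratory chain and ATP synthase subunits 72 were lower and none higher by edgeR, with a median of -0.81. Of the 13 proteins encoded by mitochondrial DNA, the products of the mitoribosome, 12 were lower, with a median of -0.95. Cytosolic ribosomal proteins, which serve the other ribosome of the same cells, had a median of 0.06. Of 78 tested genes 10 were higher and 2 lower, or 1 lower without TAC replicate 1. The shares over all tested genes were 28.9% higher and 27.9% lower. Rpl41 was the higher example at 0.63, and Rpl30 the lower at -0.44. By library size alone the cytosolic set had 70 higher genes and the respiratory chain set 50 lower ones. With that scaling 51.0% of all tested genes were higher and 12.7% lower. The medians were then 0.42 for the cytosolic, -0.06 for the mitoribosomal and -0.46 for the respiratory chain genes. A change of scaling shifts all sets by about the same amount and cannot test their order.

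**Figure D4:**
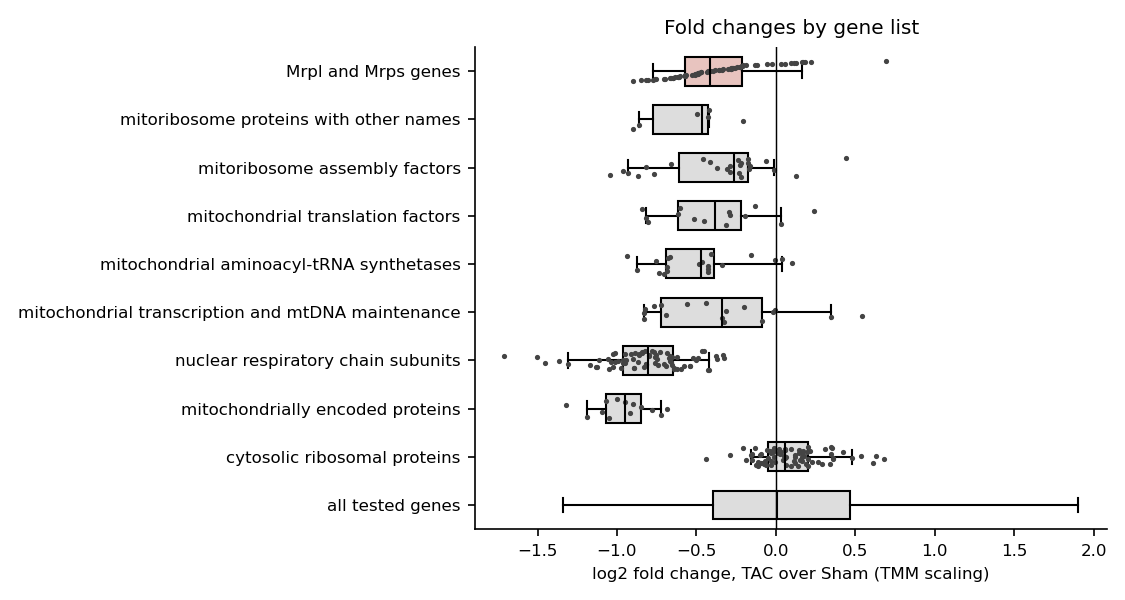
Log2 fold change (TAC over Sham, TMM scaling, x axis) of the tested genes of each list (points), with boxes from the lower to the upper quartile, the median as a line and whiskers from the 5th to the 95th percentile. The Mrpl and Mrps genes (median -0.41) lie between the respiratory chain subunits (-0.81) and the cytosolic ribosomal proteins (0.06).

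Ratios within a library need no scaling. Counts of mitoribosomal genes per 1000 counts of nuclear respiratory chain genes were 92.2, 114.5, 108.1, 105.7 and 109.6 in TAC and 75.77, 75.87, 79.9, 77.57 and 71.43 in Sham. Every TAC library, TAC replicate 1 included, lay above every Sham library, at 106 ± 8.37 in TAC and 76.1 ± 3.11 in Sham (SD, n = 5 each). Per 1000 counts of cytosolic ribosomal proteins the values were 207.3, 125.7, 146.3, 155.0 and 192.3 in TAC and 222.2, 206.2, 255.2, 241.4 and 213.2 in Sham. TAC replicates 2 to 5 lay below every Sham library and TAC replicate 1 just above the lowest of them. As these ratios are scores over the genes described, they are given without a test.

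**Figure D5:**
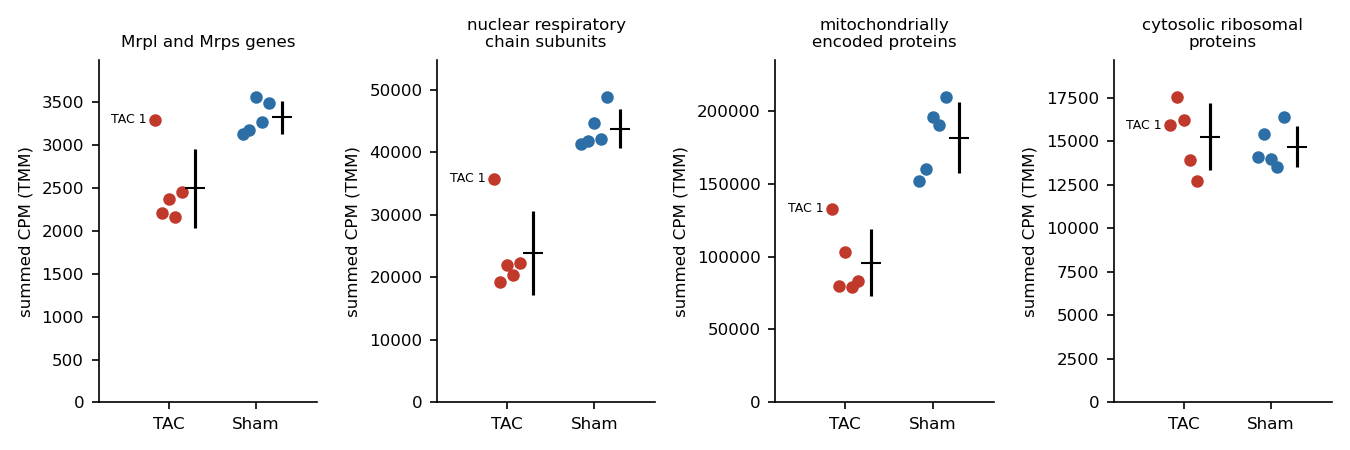
Summed CPM (TMM scaling, y axis from 0) of 4 gene sets in each library, TAC left of Sham, with the mean and 1 SD (bars, n = 5). TAC replicate 1 is the highest TAC library for the Mrpl and Mrps genes, the respiratory chain subunits and the mitochondrially encoded proteins, but not for the cytosolic ribosomal proteins.

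Many cell type markers also differed between the groups, and their part in the values above was not tested. Over all tested genes 28.9% were higher and 27.9% lower. Of 12 cardiomyocyte markers 11 were lower, with a summed level of 51025 to 67183 CPM in TAC, highest in TAC replicate 1, and 110530 to 129090 CPM in Sham. The exception, Nppa, the atrial natriuretic peptide gene, was higher at 0.80. Of 9 fibroblast markers 6 were higher and 1 lower, with sums of 5967 to 13802 CPM in TAC, lowest in TAC replicate 1, and 2190 to 2877 CPM in Sham. All 8 macrophage markers were higher, with sums of 736 to 1218 CPM in TAC, again lowest in TAC replicate 1, and 301 to 526 CPM in Sham. In bulk tissue, fewer cells of a type and less RNA per cell cannot be told apart.

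Of the other markers, 4 of 6 of smooth muscle and pericytes were higher, with sums of 670 to 971 CPM in TAC and 335 to 461 CPM in Sham. Of 7 endothelial markers 3 were higher and 1 lower, with sums of 916 to 1286 CPM in TAC and 892 to 1274 CPM in Sham. All 6 proliferation markers were higher, with sums of 121 to 434 CPM in TAC and 2.48 to 18.4 CPM in Sham. Of 5 tested neutrophil and lymphocyte markers 4 were higher, with sums over all 8 of 20.5 to 43.1 CPM in TAC and 5.05 to 13.8 CPM in Sham. In the order given, TAC replicate 1 had sums of 822, 1055, 300 and 20.5 CPM, the lowest TAC library in the last alone. Ventricular markers summed to 17.9 to 327 CPM in TAC and 21.2 to 540 CPM in Sham, with Hey2 higher, Myl2 lower and Irx4 near 0 in both groups, so the level of these markers varied among libraries of both groups. Counts of mitochondrially encoded genes took 10.99% ± 2.10 of each TAC library and 16.3% ± 1.42 of each Sham library (SD, n = 5 each).

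RefSeq promoters were found for 68 of the 77 genes, 74 windows of 300 bases in all. The motif CCGGAAG, bound by ETS factors such as GABPA, was present on either strand in 33.8% of them, against 8.86% of all 32851 promoters and 15.7% of 13881 promoters of tested genes. GCANGCG, a core of the NRF1 site, was in 39.2% of the mitoribosomal windows, 16.6% of all promoters and 27.8% of those of tested genes. AAGATGG, bound by YY1, was in 17.6% of the mitoribosomal windows, 6.34% of all promoters and 6.63% of those of tested genes. The windows had a median GC content of 58.5%, against 52.7% in all promoters and 60.3% in promoters of tested genes. AAGGTCA, bound by oestrogen-related receptors, was in 5.41% of the mitoribosomal windows, 4.72% of all promoters and 3.26% of those of tested genes. The E-box CACGTG was in 9.46% of the mitoribosomal windows, 7.15% of all promoters and 9.46% of those of tested genes. The GC box GGGCGG was in 52.7% of the mitoribosomal windows, above the 35.7% of all promoters and below the 60.2% of those of tested genes. The patterns were searched separately and may overlap. Some genes, such as Mrpl2, have several windows that hold the same site. The 7 windows with an E-box came from 5 genes, and the 39 with a GC box from 34 genes.

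Genes with and without the ETS match both held lower genes. Of the 24 tested genes with it 11 were lower (median log2 fold change -0.27), and of the 43 tested genes with a promoter but no match 33 were lower (median -0.48). For NRF1, 18 of 28 genes were lower with the match (median -0.39) and 26 of 39 without it (median -0.40). For YY1 it was 7 of 13 with it (median -0.28) and 37 of 54 without it (median -0.41), and for the GC box 21 of 34 with it (median -0.36) and 23 of 33 without it (median -0.43). The few genes with the E-box had 2 of 5 lower (median 0.06), against 42 of 62 without it (median -0.40). For ERR it was 3 of 4 with it (median -0.49) and 41 of 63 without it (median -0.38). These counts describe the set and were not tested.

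Among these genes, 26 have a protein-coding neighbour that starts on the opposite strand within 1000 bases or overlaps the gene's start by up to 500 bases. Of the 26, 16 were lower. The neighbours had a median log2 fold change of -0.11, with 9 lower, 7 higher and 10 not called, counts near the shares of 27.9% lower and 28.9% higher over all tested genes. Both were lower in 5 pairs, and the mitoribosomal gene was lower and its neighbour higher in 4. Mrpl46 and Mrps11 are each other's neighbour, so this pair is counted from both sides. Mrpl46 is thus among the lower neighbours and Mrps11 among those not called.

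Mrps12 and Sars2, the mitochondrial seryl-tRNA synthetase, start 172 bases apart and were alike at -0.69 and -0.68. Mrpl51 and its neighbour Ncapd2, a condensin subunit, were at -0.57 and 0.80. Mrpl36 and Ndufs6, a complex I subunit, were at 0.13 and -0.66, so that here the respiratory chain gene was lower and the ribosomal gene was not called. Mrpl46 and Mrps11, both of the mitoribosome, were at -0.47 and -0.21, the second not called. Reads across an overlapping start cannot be assigned to a strand here.

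Of the 77 genes, 32 share exonic bases with another annotated gene. Among the 45 that share none, 32 were lower and none higher by edgeR, since Mrpl33 shares 3.56% of its exonic bases.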

How the data were processed

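RNA of 10 left atrial libraries (5 TAC, 5 Sham, grouped by title) was measured by bulk sequencing. The deposited values are raw counts per gene symbol, which the authors did not normalise. STAR, bcl2fastq and the build mm10 appear in the submitters' processing notes without versions. For the counter, strand setting and annotation the entry is "not given in the sources used here", and labels and design text name different library kits. The 5 closing tallies stayed out of library sizes and tests. Of all reads, 3.76% in TAC and 3.12% in Sham lay in no gene, 5.79% in TAC and 4.31% in Sham were ambiguous, 4.62% in TAC and 4.12% in Sham were not aligned, and 13.4% in TAC and 15.8% in Sham aligned to several places. Depth, as the total of gene counts, was 17117306 to 43956384.

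Counts were tested with edgeR 4.0.16 in R 4.3.3 (TMM, filterByExpr, robust quasi-likelihood fit, group as the only term). Calls were made below an adjusted p (Benjamini-Hochberg) of 0.05 over 15175 genes, and the SE was the size of the log2 fold change divided by the square root of F. Ratios of the Mrps18 genes were compared by exact permutation. Coordinates and shared exons came from GENCODE M21 (GRCm38, the assembly of mm10), to which 46294 symbols (95.7%) matched, and promoters from RefSeq. The test was checked on simulated data with few changed genes, about as many up as down. That check does not cover the scaling between groups. Alternatives used DESeq2 1.42.0, limma 3.58.1, other scalings and filters, and fewer libraries. Figures were drawn with matplotlib 3.10.9 and exact tests run with scipy 1.17.1 in Python 3.11.15.

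The genes and lists were chosen with earlier results of these data known. Genes named were a set preset by role, the 6 highest and 6 lowest log2 fold changes, the 3 most and 2 least abundant per kilobase, and, in other lists, the called gene with the smallest adjusted p in each direction plus 10 preset regulators and RNAs; further genes (Dap3, Mrpl46, the neighbours) were chosen after their values were seen.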

Additional observations from a re-analysis of the deposited data

Results flagged for a closer look

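In 16 of 80 groups of 5 libraries checked, a single library stood apart from the other 4, its gap to the nearest being over 0.71 of the group's range. For a single group chance alone gives about 1 in 20. The groups checked are related genes, sums and ratios over the same libraries, so they are not independent. Their count therefore cannot be set against that rate. In 13 of the 16 the library was TAC replicate 1, as the highest of the TAC libraries, and why it differed was not tested.

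The share of the range was 0.879 for Mrps35, 0.862 for Mrpl44, 0.817 for Mrpl42, 0.811 for Mrps16, 0.777 for Mrps25 and 0.776 for Mrpl3. It was 0.759 for Mrps36, 0.741 for Mrps23, 0.731 for Mrpl43, 0.729 for Mrpl20 and 0.722 for Mrpl12. Of the sums, it was 0.746 for the mitoribosomal genes, where TAC replicate 1 had 3299 CPM and the others 2160 to 2449, and 0.814 for the nuclear respiratory chain genes, where it had 35777 CPM and the others 19285 to 22356. Mrpl43 and Mrpl20 show that TAC replicate 1 was also above the other TAC libraries in genes that were not lower, at 43.8 against 29.8 to 33.6 CPM and at 45.2 against 34.4 to 37.3 CPM.

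The other 3 were in Sham. Mrps18a was lowest in Sham replicate 1, at 27.1 CPM against 30.5 to 31.6 (0.753 of the range). Mrps31 was highest in Sham replicate 5, at 46.9 CPM against 39.8 to 41.6 (0.749). Mrps6 was highest in Sham replicate 3, at 109 CPM against 72.3 to 79.0 (0.818).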

How the results depend on the processing

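With library size as the only scaling, 7741 genes were higher and 1929 lower, 12 members of the mitoribosomal set were higher and 13 lower, and the medians were -0.056 for all members, -0.066 for the large and -0.00055 for the small subunit, with a ratio of summed CPM of 0.960. The sign turned under it for Mrps22 (0.0035), Mrpl10 (0.13), Mrpl11 (0.020), Mrps16 (0.14), Mrps18a (0.30) and Mrps23 (0.076). Elsewhere the sign turned for Mrps18a without TAC replicate 2 (0.0060) or 4 (0.016), in a range from -0.12, and for Mrps18c without TAC replicate 1 (-0.026), without Sham replicate 4 (-0.0013) in a range up to 0.15, or without the 2 shallowest Sham libraries (-0.011); neither gene was called. The cause was not tested. Upper-quartile factors and thinning to the shallowest library each gave 2 higher members, the second being Mrpl20. Members with no shared exonic bases gave 32 lower and 0 higher, fewer genes by construction. DESeq2, its size factors, a CPM filter of 1 and removal of mitochondrially encoded and haemoglobin genes left the direction and call of all 30 named members as they were. With 1 library left out, 4136 to 4602 genes were higher and 3762 to 4224 lower, and 1 to 2 members were higher and 36 to 61 lower. The medians then ran from -0.498 to -0.317 for all members, -0.553 to -0.329 for the large subunit and -0.431 to -0.278 for the small one. The log2 ratios differed by 0.317 to 0.462 (Mrps18a to Mrps18b), -0.209 to -0.0583 (Mrps18a to Mrps18c) and -0.561 to -0.424 (Mrps18b to Mrps18c). Samples of equal number did not deviate together (correlations of -0.093 to 0.087, and none correlated best with its own number), so the numbers were not taken as pairs. A replicate block gave 48 lower members and 1 higher, with 4103 genes higher and 3917 lower. Without the 2 shallowest Sham libraries, Mrpl11 (adjusted p = 0.0613) and Mrps10 (0.0891) lost their calls, as Mrps10 did with limma voom (0.060). Library size scaling ended the calls of 10 named members without turning the sign (Mrpl3, Mrpl12, Mrpl44, Mrpl45, Mrps10, Mrps12, Mrps18b, Mrps21, Mrps35 and Mrps36).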

Other observations

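The pseudogene rows left out of the set held few counts. Mrpl23-ps1 had 0.58 to 1.04 CPM in TAC and 1.24 to 1.92 CPM in Sham, without overlap, on the same side as Mrpl23 itself. Mrpl48-ps had 0.323 to 3.59 CPM in TAC and 0.575 to 8.57 CPM in Sham, a wide spread within both groups. Mrps36-ps1 had 0.0792 to 0.717 CPM in TAC and 0.192 to 0.563 CPM in Sham, and Mrps36-ps3 had no count in any library.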
